A study of Homo sapiens with 4 samples.

Results

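Matrix proteases and their inhibitors were described here as the genes named MMP, TIMP, ADAMTS or HTRA followed by a number. 49 of the 43305 genes on the array had such a name: 22 MMP, 4 TIMP, 19 ADAMTS and 4 HTRA genes. Their mRNA was measured in 4 samples with 1 one-colour Agilent array each: HN4 and HN30, established human lines of squamous cell carcinoma of the head and neck (HNSCC), and their cisplatin-resistant derivatives, named HN4/DDP and HN30/DDP. The resistant lines had been made by raising the cisplatin concentration step by step and, by the labels, were held in 20 µM cisplatin for 48 h, while no drug is named for the parental lines; all 4 grew in DMEM with fetal bovine serum. Each condition was 1 sample of 1 line, so there is no replicate error, and acquired resistance cannot be told apart from the drug in the medium.

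Matrix metalloproteinases (MMPs) are zinc enzymes that are made as inactive precursors and cut collagens, laminins, proteoglycans and growth factor carriers once activated. Tissue inhibitors of metalloproteinases (TIMPs) bind the active site of these enzymes. ADAMTS proteins are secreted relatives with thrombospondin repeats that process procollagens, aggrecan, versican or von Willebrand factor. HTRA proteins are serine proteases of the secreted or mitochondrial compartments. In squamous carcinoma, interstitial collagenase, the stromelysins and the gelatinases are commonly studied in invasion, and many of them are made by stromal cells rather than by the tumour cells.

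Levels below are log2 processed intensities minus the 75th percentile of the array, so that 0 is the level of a spot at that percentile. Probe positions are on hg19. Differences are the resistant array minus its parental array on this scale. The scanner SD given with a difference was propagated from the error that the scanning software assigns to each signal. It covers the measurement of the spot and not the spread between cultures. A gene was called higher when its difference was above 2 and its signal well above background on the array of the resistant line, and lower when its difference was below -2 and its signal was well above background on the array of the parent. A threshold of 1 was used in the same way for smaller differences. Where 1 array of a pair was not well above background, the fold is a lower bound against the lowest signal that was well above background there, written as "at least".

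All 4 arrays lay on 1 slide and were scanned together, between 55.3% and 63.6% of the spots were well above background, and no spot was saturated. All 12 squamous epithelial markers, such as the keratins KRT5 and KRT14, were well above background on at least 1 array, with summed intensities from 149772 to 217412. Of these markers 3 were higher and 2 lower past 2 in HN4/DDP, and 1, KRT6A, was lower past 2 in HN30/DDP. The differences in HN4 were 2.33 for KRT14, 3.29 for KRT17, 3.32 for KRT6A, -2.95 for DSC3 and -4.05 for KRT5. KRT6A was not well above background in HN30/DDP, at least 183-fold lower than in HN30. KRT5 was 3.81-fold lower in HN30/DDP with a difference of -1.93. Past 1 in HN30/DDP, 3 markers were higher, CDH1 (1.34), LAMB3 (1.28) and DSC3 (1.12), and 2 were lower, KRT6A and KRT5. The part of these markers in the results was not tested. Of 9 fibroblast markers, only COL1A1 and PDGFRB passed, with summed intensities of the list from 117 to 520, and COL1A2, COL3A1, COL6A3, DCN, LUM, PDGFRA and THY1 did not pass on any array. COL1A1 had differences of 1.73 (HN4) and 2.43 (HN30); its part in the differences of the proteases was not tested. Of 5 leukocyte markers 4 passed on at least 1 array, with summed intensities from 1631 to 19019. Most of this was CD14, which was 3.49 higher in HN30/DDP. Of 4 endothelial markers 3 passed, with sums from 99.3 to 157. In HN4/DDP the endothelial markers VWF (difference 2.43) and PECAM1 (-2.88) passed 2.

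Of the 49 proteases and inhibitors, 21 were well above background on all 4 arrays, 12 on 1 to 3 arrays and 16 on none. In HN4 and its resistant derivative 24 and 26 passed, and in HN30 and its derivative 25 and 29, or 49.0% to 59.2% of the members, where 55.3% to 63.8% of all genes passed. The 16 that passed nowhere were the collagenases MMP8 and MMP13, the stromelysin MMP10, the macrophage elastase MMP12, the membrane-bound MMP16 and MMP24, MMP20, MMP26 and MMP27, and 7 ADAMTS genes, ADAMTS2, ADAMTS5, ADAMTS8, ADAMTS10, ADAMTS15, ADAMTS16 and ADAMTS18. All 4 TIMP and all 4 HTRA genes passed on at least 1 array, as did 13 of 22 MMP and 12 of 19 ADAMTS genes.

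**Figure D1:**
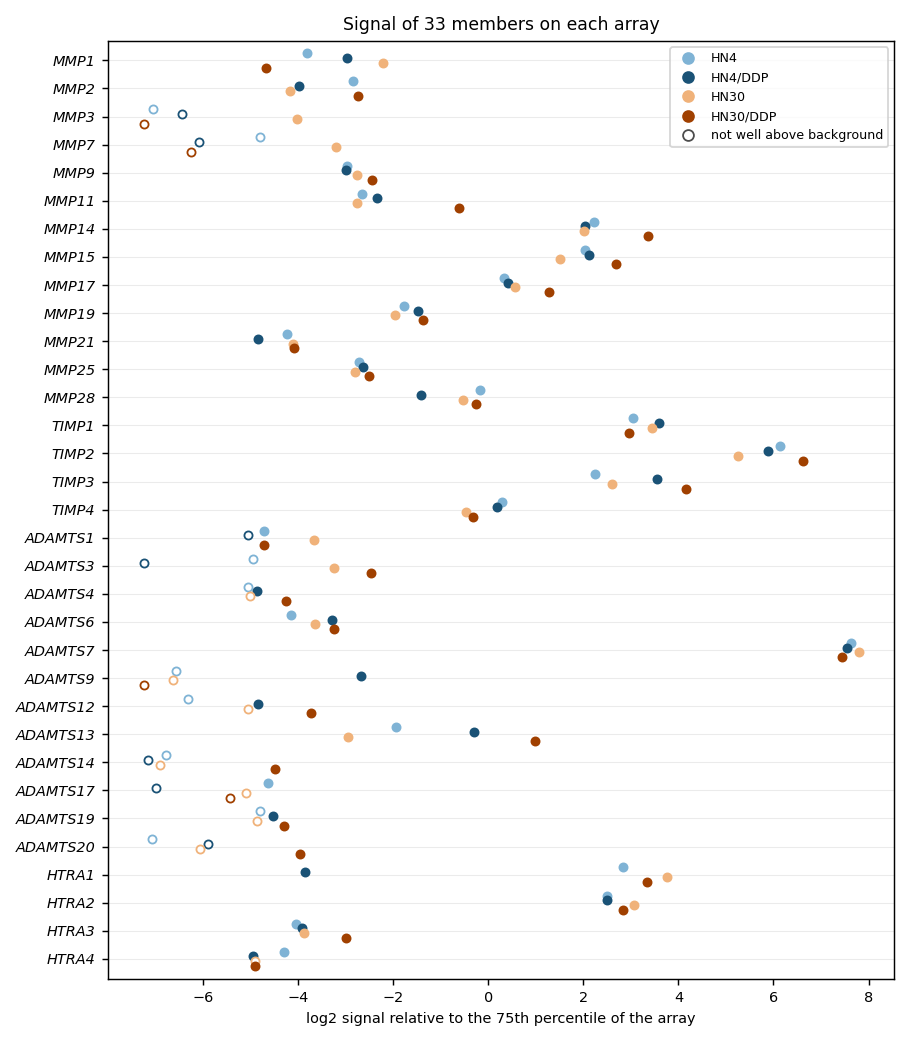
Log2 signal of the 33 members that were well above background on at least 1 array, relative to the 75th percentile of each array (x axis). Points are single arrays, filled where the signal was well above background and open where it was not. HTRA1 in HN4/DDP lies at -3.87 against 2.84 in HN4, and ADAMTS13 reaches 0.97 in HN30/DDP.

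In HN4/DDP, 1 member was called higher, ADAMTS9, where 2.24% of all genes were, and 2 were called lower, ADAMTS17 and HTRA1, where 1.36% of all genes were. In HN30/DDP, 4 were called higher, ADAMTS13, ADAMTS14, ADAMTS20 and MMP11, against 5.48% of all genes, and 3 were called lower, MMP1, MMP3 and MMP7, against 1.8%. As shares of the 49 members these counts were 2.04%, 4.08%, 8.16% and 6.12%. Since each count is small, the shares are a description next to the background. No member was called in the same direction in both lines, where 0.688% of all genes were higher in both and 0.0808% were lower in both.

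At the threshold of 1, 4 members were higher in HN4/DDP (background 5.77%), 4 were lower in HN4/DDP (5.36%), 10 were higher in HN30/DDP (12.9%) and 4 were lower in HN30/DDP (8.67%). The 10 in HN30/DDP made up 20.4% of the members. With scaling to the median 6 of them passed, 12.2% of the members beside 8.92% of all genes, as ADAMTS12, MMP14, MMP15 and TIMP2 fell below 1, and with normexp background correction 6 passed beside 5.38% of all genes. Among the 18227 genes whose probe was designed on a curated RefSeq mRNA, which lie nearer to the members in kind, the 4 shares were 7.86%, 6.68%, 13.6% and 14.5%. Higher in both lines were 3 members, ADAMTS12, ADAMTS13 and TIMP3, against 2.66% of all genes, of which ADAMTS13 and TIMP3 passed under each of the 7 alternatives run for this count, and none was lower in both, against 1.18%. Among the members that passed the background flag on both arrays of their line, the median difference was 0.04 over 22 genes in HN4 and 0.39 over 23 genes in HN30, with 17 of these 23 above 0. The same medians over all genes were -0.09 and -0.07, with 10748 of 23245 genes above 0 in HN30. Over all 49 members the median was -0.10 in HN4 and -0.19 in HN30, and its sign was not the same under all alternatives in either line. Scaling to the array median moved the median of all genes in HN30 from -0.07 to -0.49, so that every HN30 difference was lower by the same amount under it. Of the 17 members above 0 in HN30, ADAMTS6, MMP9, MMP21, MMP25, MMP28 and TIMP4 fell below 0 with this scaling.

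**Figure D2:**
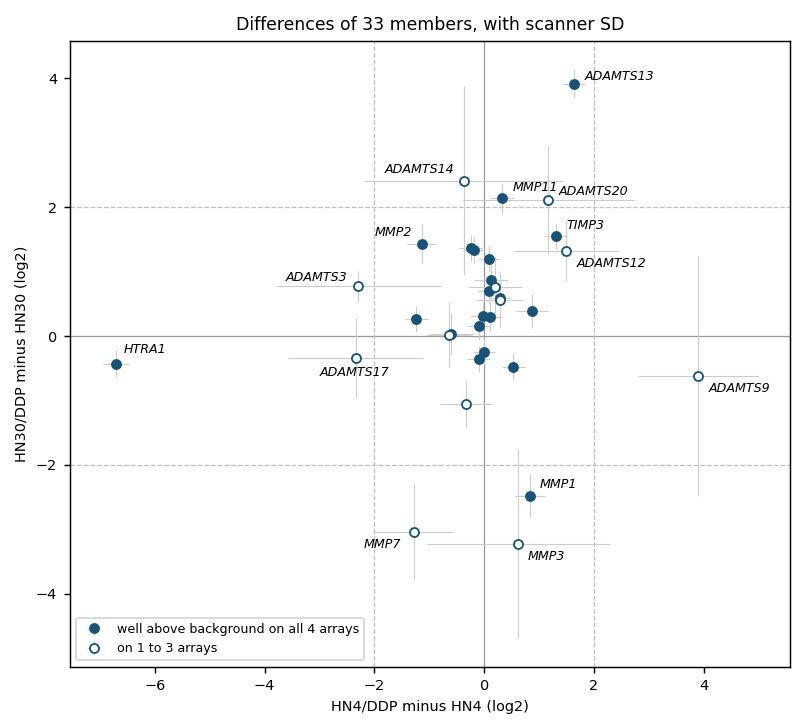
Difference of HN30/DDP from HN30 (y axis) against the difference of HN4/DDP from HN4 (x axis), both log2, for the 33 members well above background on at least 1 array. Bars are the scanner SD, dashed lines mark a difference of 2 in either direction, filled points were well above background on all 4 arrays, and no point lies beyond the dashed lines in the same direction in both lines.

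The largest difference of any member was that of HTRA1, a secreted serine protease with a domain resembling insulin-like growth factor binding proteins that cuts fibronectin, decorin and other matrix proteins. On its probe (chr10:124274338-124274397, hg19) the log2 level was 2.84 in parental HN4 against -3.87 in HN4/DDP, and 3.77 in parental HN30 against 3.34 in HN30/DDP. HN4/DDP thus stood alone, with a difference of -6.71 (scanner SD 0.24), or a level 104-fold lower than in HN4, while HN30/DDP differed from HN30 by -0.43 (scanner SD 0.20), or by 0.04 after quantile normalization and -0.85 with scaling to the median. Its signal was still well above background in HN4/DDP. Under the alternatives tried the HN4 difference lay between -6.71 and -5.26.

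Because HTRA1 carried the largest difference, the 150 bases before its transcription start are printed, from RefSeq on GRCh38.p14, plus strand, chr10:122461403-122461552, 5′ to 3′, with each CG dinucleotide in capitals.
HTRA1: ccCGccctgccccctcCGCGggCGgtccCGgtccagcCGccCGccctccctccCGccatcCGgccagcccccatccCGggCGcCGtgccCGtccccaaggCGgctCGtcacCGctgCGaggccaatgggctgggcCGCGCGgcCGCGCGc
In the 250 bases before the start there were 39 CG dinucleotides, a number reached by 2.65% of the 35116 RefSeq promoters, whose median was 11. This describes the sequence, and DNA methylation was not measured in these samples.

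The other HTRA genes differed less. HTRA2, the mitochondrial member that is released to the cytosol during apoptosis, had levels of 2.49, 2.49, 3.07 and 2.82 in HN4, HN4/DDP, HN30 and HN30/DDP, with differences of -0.01 and -0.24 (scanner SD 0.20 each), the latter 0.17 after quantile normalization and -0.66 with scaling to the median. HTRA3, a secreted protease related to HTRA1, had levels of -4.04, -3.91, -3.87 and -3.00 in the same order, and differed by 0.13 in HN4 and by 0.88 in HN30 (scanner SD 0.30 and 0.28). The HN30 difference of HTRA3 was 0.29 with normexp background correction and 0.46 with scaling to the median or quantile normalization. It was 0.45 with the deposited values and 1.00 with the mean of its probes. HTRA4 differed by -0.65 in HN4 (scanner SD 0.41) and by 0.02 in HN30, where the parental array was not well above background.

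Among the inhibitors, TIMP3 was higher by more than 1 in both resistant lines. TIMP3 is the inhibitor that stays bound to the matrix and also acts on ADAM and ADAMTS enzymes. Its level at chr22:33258540-33258599 (hg19) was 2.25 in parental HN4 against 3.55 in HN4/DDP, and 2.60 in parental HN30 against 4.16 in HN30/DDP, so that both resistant arrays lay above both parental arrays. The differences were 1.30, or 2.46-fold, and 1.56, or 2.94-fold (scanner SD 0.20 each), and under the alternatives they ranged from 1.28 to 1.39 and from 1.14 to 2.03. In the fit that sets the resistant arrays against the parental ones, with the line as block, the mean difference was 1.43 (SE 0.39, limma, adjusted p = 0.499).

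TIMP2, which inhibits MMPs and also takes part in the activation of MMP2 on the cell surface, had levels of 6.13, 5.88, 5.26 and 6.63 in HN4, HN4/DDP, HN30 and HN30/DDP. It was 2.58-fold higher in HN30/DDP (difference 1.37, scanner SD 0.20) and differed by -0.25 in HN4/DDP. TIMP1, a soluble inhibitor made by many cells, had levels of 3.05, 3.58, 3.44 and 2.96, and differences of 0.53 and -0.47; in HN30 the latter was -0.05 with quantile normalization and -0.08 with the deposited values, within the scanner SD of 0.20, and -0.89 with scaling to the median. TIMP4 differed by -0.10 and 0.15, both within the scanner SD of about 0.20, and in HN30 by -0.27 with scaling to the median. The median of the 4 inhibitors was 0.21 in HN4 and 0.76 in HN30. TIMP1, TIMP3 and TIMP4 lie inside introns of the synapsin genes SYN1, SYN3 and SYN2 on the opposite strand; SYN1 and SYN3 were well above background on no array, and SYN2 on 2 arrays.

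MMP14 and TIMP2 are known to act in the activation of the gelatinase MMP2 at the cell surface, and the values of MMP2 and MMP14 are given here after those of TIMP2; they are 3 of the 10 members past 1 in HN30/DDP, beside 12.9% of all genes, and were set together after their values were seen. MMP2, which cuts denatured collagen and basement membrane collagen, had levels at chr16:55540518-55540577 of -2.84 in parental HN4 against -3.98 in HN4/DDP, and -4.18 in parental HN30 against -2.74 in HN30/DDP. It was 2.21-fold lower in HN4/DDP (difference -1.14, scanner SD 0.27) and 2.70-fold higher in HN30/DDP (difference 1.44, scanner SD 0.30). With normexp background correction these differences were -0.55 and 0.49, and with a pseudocount of 16 they were -0.85 and 1.01. MMP14, the membrane-bound collagenase, had levels of 2.23, 2.04, 2.02 and 3.36, and was 2.52-fold higher in HN30/DDP (difference 1.34, scanner SD 0.20) with -0.19 in HN4/DDP. The other gelatinase, MMP9, showed no difference past its scanner SD in HN4 (-0.02) and one of 0.30 in HN30 (scanner SD 0.23 each), which turned to -0.12 with scaling to the median and to -0.11 with quantile normalization and with the deposited values. With scaling to the median the differences of MMP14 and TIMP2 in HN30 were 0.92 and 0.95.

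MMP15, a second membrane-bound enzyme, had levels from 1.50 in HN30 to 2.70 in HN30/DDP, a difference of 0.09 in HN4 and of 1.20, or 2.29-fold, in HN30 (scanner SD 0.20 each). MMP17 and MMP25, which are anchored to the membrane by a lipid, differed by 0.08 and 0.10 in HN4 and by 0.70 and 0.30 in HN30. With scaling to the median the HN30 differences of MMP15 and MMP17 were 0.78 and 0.29. MMP16 and MMP24, the other membrane-type genes, were dim on every array, with measured HN30 differences of -1.52 and -1.10. The sign of MMP25 turned with scaling to the median (-0.12), quantile normalization (-0.13) and the deposited log2 values (-0.13).

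MMP11, also called stromelysin 3, which is activated inside the cell by furin, had levels at chr22:24126273-24126332 of -2.67 in parental HN4 against -2.34 in HN4/DDP, and -2.76 in parental HN30 against -0.62 in HN30/DDP. The first 3 arrays lay close together and HN30/DDP stood above them, by 2.14 or 4.40-fold against HN30 (scanner SD 0.22). The alternatives gave 1.45 to 2.14 for this difference. It was below 2 with normexp background correction (1.45), scaling to the median (1.72) and quantile normalization (1.87). The deposited values (1.83) and a pseudocount of 16 (1.90) also gave less than 2. MMP28, or epilysin, an enzyme of the epidermis, was 2.36-fold lower in HN4/DDP, with levels of -0.17, -1.41, -0.52 and -0.26 and differences of -1.24 and 0.26 (scanner SD 0.21 each). Its HN30 difference turned to -0.16 with scaling to the median. On the probes used, MMP19 and MMP21 differed by less than 1 in both lines.

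The 3 members called lower in HN30/DDP lie in 1 run of MMP genes on chromosome 11. By RefSeq this run holds, in order, MMP7, MMP20, MMP27, MMP8, MMP10, MMP1, MMP3, MMP12 and MMP13 with no other protein-coding gene between them, and the probes span 420 kb on hg19. The 6 other genes of the run were well above background on no array. MMP3 and MMP7 passed in HN30 only, so in that line they could only be called lower. MMP1 passed on all 4 arrays and could go either way. It was lower in HN30/DDP and higher by 0.84 in HN4/DDP.

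MMP1, the interstitial collagenase, which cuts fibrillar collagens, had levels at chr11:102660697-102660756 (hg19) of -3.81 in parental HN4 against -2.97 in HN4/DDP, and -2.21 in parental HN30 against -4.68 in HN30/DDP. It was highest in HN30 and lowest in HN30/DDP, 5.56-fold lower (difference -2.48, scanner SD 0.33), and was 1.79-fold higher in HN4/DDP (difference 0.84, scanner SD 0.27). Its probe was printed at several spots, whose SD on the log2 scale was 0.15, 0.13, 0.09 and 0.34 on the 4 arrays, so the differences were larger than the spread between spots. Under the alternatives the HN30 difference lay between -2.92 and -1.09.

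MMP3, or stromelysin 1, which cuts proteoglycans and activates other MMP precursors, was well above background only in HN30. Its levels were -7.06, -6.44, -4.02 and -7.24, and HN30/DDP was at least 1.90-fold lower than HN30 (measured difference -3.22, scanner SD 1.47). MMP7, or matrilysin, a small enzyme made by epithelial cells, was also well above background only in HN30. Its levels were -4.81, -6.09, -3.21 and -6.25, and HN30/DDP was at least 3.33-fold lower (measured difference -3.04, scanner SD 0.75). In HN4 both arrays were dim for MMP3 and MMP7, so no fold is given there. The differences of both genes in HN30 went from below -2 to -0.75 for MMP3 and -0.85 for MMP7 under the alternative that changed them most.

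**Figure D3:**
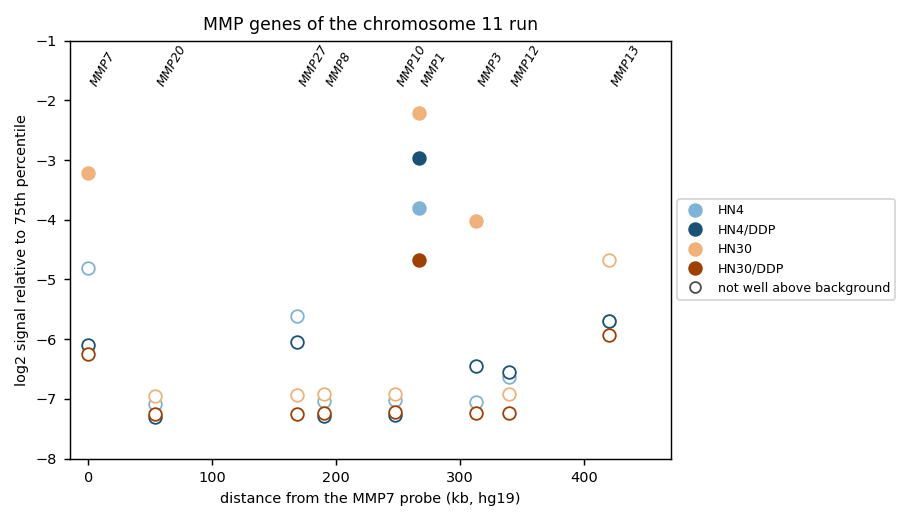
Log2 signal relative to the 75th percentile of the array (y axis) for the 9 MMP genes of the chromosome 11 run, placed by the distance of their probes from the MMP7 probe in kb on hg19 (x axis). Points are single arrays, open where the signal was not well above background; the HN30 points of MMP7, MMP1 and MMP3 lie above those of HN30/DDP, and the remaining 6 genes have open points only.

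The nearest protein-coding neighbours that were well above background on all 4 arrays were compared, since they share the chromosome arm. On the MMP7 side, BIRC3, BIRC2 and TMEM123 differed by -1.13, -0.61 and -0.59 in HN30, and on the MMP13 side DCUN1D5, DYNC2H1 and CASP4 differed by -1.37, -0.73 and 0.07. In HN4 the same 6 genes ranged from -1.55 (TMEM123) to 0.43 (DYNC2H1). None of the 6 passed a difference of 2 in either line. DNA copy number was not measured.

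Several genes of this run are known targets of AP-1, a dimer of FOS and JUN family proteins. Its usual site is TGAGTCA or TGACTCA. The promoters were searched for the wider motif TGANTCA, where N is any base. This motif is its own reverse complement, so the strands need no separate search. RefSeq promoters were at hand for 29 of the 49 members, among them MMP7, MMP10 and MMP20 of the run but not MMP1 or MMP3. The motif was found in the 250 bases before the start in 4 of the 29 (13.8%) and in 6.57% of the 35116 promoters. The 4 are shown from 130 bases before the start up to it, with the motif in capitals. All are GRCh38.p14 and minus strand: MMP7 at chr11:102530748-102530877, MMP10 at chr11:102780629-102780758, MMP20 at chr11:102625333-102625462 and ADAMTS12 at chr5:33891991-33892120.
MMP7: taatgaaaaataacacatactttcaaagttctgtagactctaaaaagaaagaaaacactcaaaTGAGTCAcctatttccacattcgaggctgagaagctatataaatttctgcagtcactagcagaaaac
MMP10: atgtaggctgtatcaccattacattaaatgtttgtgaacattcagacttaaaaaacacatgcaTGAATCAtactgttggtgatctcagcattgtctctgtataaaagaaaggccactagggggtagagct
MMP20: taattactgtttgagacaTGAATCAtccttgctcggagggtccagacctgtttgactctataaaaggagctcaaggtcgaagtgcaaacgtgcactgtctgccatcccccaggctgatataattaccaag
ADAMTS12: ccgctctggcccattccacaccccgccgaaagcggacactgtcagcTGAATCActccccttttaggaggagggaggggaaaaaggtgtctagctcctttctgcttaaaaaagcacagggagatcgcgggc
In MMP7 and MMP10 the motif begins 67 bases before the start, in ADAMTS12 84 and in MMP20 112. MMP7 holds TGAGTCA, while MMP10, MMP20 and ADAMTS12 hold TGAATCA. The shares above are therefore those of the wider motif and not of the usual AP-1 site. Of the 4 genes, MMP7 was lower in HN30/DDP, ADAMTS12 had measured differences above 1 in both resistant lines that stayed above 1 under 4 of 7 alternatives in HN4 and 1 of 7 in HN30, and MMP10 and MMP20 were well above background nowhere. A match of letters does not show that a factor was bound.

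The ADAMTS member with the largest difference in HN30 was ADAMTS13, the protease that cuts von Willebrand factor and is known as a product of liver stellate cells. Its level was -1.94 in parental HN4 against -0.31 in HN4/DDP, and -2.94 in parental HN30 against 0.97 in HN30/DDP, so that both resistant arrays lay above both parental arrays. It was 3.10-fold higher in HN4/DDP (difference 1.63, scanner SD 0.21) and 15.1-fold higher in HN30/DDP (difference 3.92, scanner SD 0.22). In the fit of resistant against parental arrays it had the smallest adjusted p of any member (mean difference 2.78, SE 0.65, limma, adjusted p = 0.485). Its substrate gene VWF, one of the endothelial markers above, was named for this relation after its values were seen. It was at least 5.37-fold higher in HN4/DDP and differed by 1.49 in HN30. Of the other endothelial markers, PECAM1 was at least 2.05-fold lower in HN4/DDP and at least 1.64-fold higher in HN30/DDP. CDH5 differed by -0.62 and -0.59.

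The ADAMTS13 values rest on a probe at the 3′ end of the gene (chr9:136324399-136324458, hg19). A second probe, in the upstream part of the gene at chr9:136291405-136291464, was well above background on no array, with differences of 0.77 and -0.10 (scanner SD 0.72 and 0.53). The difference was thus measured at the 3′ end only. When the probes were averaged the HN30 difference was 1.91.

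ADAMTS9, which cuts aggrecan and versican, was well above background in HN4/DDP only. Its levels were -6.57, -2.68, -6.63 and -7.25, and HN4/DDP was at least 4.24-fold higher than HN4 (measured difference 3.89, scanner SD 1.09). With normexp background correction the difference was 1.07, so the call at 2 was lost. It was 2.14 with a pseudocount of 16 and 2.09 with dim signals raised. ADAMTS12, which cuts cartilage oligomeric matrix protein, had levels of -6.33, -4.84, -5.06 and -3.74, with both resistant arrays well above background and neither parental array. The measured differences were 1.48 (scanner SD 0.95) and 1.32 (scanner SD 0.47), and for HN30/DDP the bound was at least 1.85-fold higher. For HN4/DDP the signal did not exceed the lowest one well above background in HN4, so no fold is given, and with dim signals raised to that lowest signal the HN4 difference was -0.08. The HN30 difference was below 1 with normexp background correction (0.27), scaling to the median (0.90), quantile normalization (0.97), the deposited values (0.98), a pseudocount of 16 (0.72) and dim signals raised (0.89).

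ADAMTS14, an enzyme that removes the N-terminal propeptide of procollagen, and ADAMTS20, which cuts versican, were well above background in HN30/DDP only, at -4.49 and -3.96. Their bounds were small, at least 1.10-fold and at least 1.59-fold higher, with measured differences of 2.41 (scanner SD 1.47) and 2.11 (scanner SD 0.83). Under the alternatives these differences ran from 0.14 to 2.41 and from 0.31 to 1.86, so that ADAMTS20 was not past 2 under any of these 7. Its second probe, dim on every array, differed by -0.49 in HN30, and the mean of its probes by 0.81. ADAMTS17 was well above background in HN4 only, at -4.64, and was at least 1.27-fold lower in HN4/DDP (measured difference -2.34, scanner SD 1.23, and -2.30 to -0.35 under the alternatives). These 3 calls therefore rest on signals near the background.

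ADAMTS3, another procollagen N-proteinase, was dim on both HN4 arrays (measured difference -2.29) and differed by 0.77 in HN30, from -3.25 to -2.47 (scanner SD 0.24). That HN30 difference was 0.28 with normexp background correction. It was 0.35 with scaling to the median, quantile normalization and the deposited values. ADAMTS1, which cuts aggrecan and versican, was 2.08-fold lower in HN30/DDP than in HN30 (levels -4.73 and -3.67, scanner SD 0.36), with a difference of -0.41 after normexp background correction. ADAMTS6 differed by 0.86 in HN4, or 0.30 with normexp background correction, and by 0.39 in HN30, which turned to values from -0.11 to -0.03 with the mean of its probes, quantile normalization, the deposited values and scaling to the median. ADAMTS4 and ADAMTS19 were well above background on the resistant arrays only, with bounds of at most 1.30-fold.

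ADAMTS7, which like ADAMTS12 cuts cartilage oligomeric matrix protein, has 4 probes, and they differed in both brightness and direction. Their sequences are shown because the value of this gene turns on them. They lie on the minus strand of chromosome 15, hg19, at chr15:79051790-79051849, chr15:79058108-79058167, chr15:79058743-79058802 and chr15:79064010-79064069, and capitals mark G and C.
ADAMTS7 probe 1: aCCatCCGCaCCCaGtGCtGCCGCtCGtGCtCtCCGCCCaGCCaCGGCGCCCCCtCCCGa
ADAMTS7 probe 2: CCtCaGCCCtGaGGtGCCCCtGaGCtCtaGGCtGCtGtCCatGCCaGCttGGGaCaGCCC
ADAMTS7 probe 3: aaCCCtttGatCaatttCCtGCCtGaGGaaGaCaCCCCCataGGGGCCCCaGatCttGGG
ADAMTS7 probe 4: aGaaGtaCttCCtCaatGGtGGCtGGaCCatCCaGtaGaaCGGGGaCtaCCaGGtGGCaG
The first, the brightest and the one used by the rule, is 75% G or C, a share reached by 0.301% of the 58201 probes, whose median was 43.3%. It had differences of -0.10 and -0.36 (scanner SD 0.20). The second (66.7% G or C) was well above background on all arrays with differences of -0.12 and 0.21. The third (55% G or C) was well above background in HN30/DDP only, where it was at least 1.64-fold higher, and the fourth (55%) nowhere. Averaging the probes gave -0.93 in HN4 and 1.02 in HN30. RefSeq also lists 4 pseudogenes of ADAMTS7, so the value of the gene is uncertain; how much of a signal came from a copy was not tested.

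**Figure D4:**
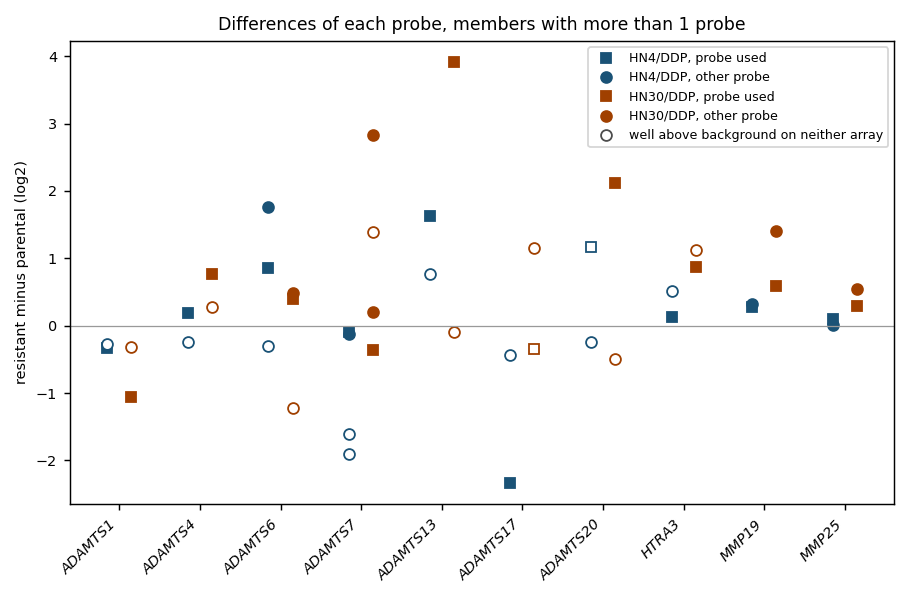
Difference of the resistant from the parental array (y axis, log2) for each probe of 10 of the 11 members with more than 1 probe (ADAMTS2, dim on every array, is left out). Squares are the probes used for the values above, circles the others, and open symbols were well above background on neither array of the pair; the probes of ADAMTS7, ADAMTS13, ADAMTS17 and ADAMTS20 lie apart.

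For other members with several probes the direction was shared where both probes were bright. The probes of MMP19 differed by 0.28 and 0.32 in HN4 and by 0.59 and 1.40 in HN30, and those of MMP25 by 0.10 and 0.01 in HN4 and by 0.30 and 0.55 in HN30. Of the ADAMTS6 probes, the one used and the next brightest differed by 0.86 and 1.76 in HN4 and by 0.39 and 0.48 in HN30, with the latter probe dim in parental HN4, and the remaining probe was dim throughout.

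The only contrast with more than 1 array per side, resistant against parental arrays with the line as a block, left 1 residual degree of freedom. None of the 33 members tested passed an adjusted p of 0.05 in limma, and none of the 29521 genes tested did (0%). At an unadjusted p under 0.05 there were 3 members, where 8.59% of all genes tested were under it. ADAMTS13 and TIMP3 were well above background on all 4 arrays. MMP7 entered the fit through its HN30 signal alone, so nothing is read from its p.

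A list of 65 other genes of pericellular proteolysis was fixed beside the members: the plasminogen system, regulators and activators of MMPs, ADAM sheddases, ADAMTS-like proteins, cathepsins and cystatins, matrix substrates, and AP-1 and ETS factors. Of these, 64 were found and 58 were well above background on at least 1 array. By the same rule, 7 were higher and 4 lower in HN4/DDP, and 4 were higher and 1 lower in HN30/DDP, beside 2.24%, 1.36%, 5.48% and 1.8% of all genes. Higher in both lines were 2, SPOCK3 and FOSB, beside 0.688% of all genes. The median difference of the list was -0.13 in HN4 and 0.14 in HN30.

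Among activators and inhibitors, PCSK5, a proprotein convertase, was at least 5.03-fold lower in HN4/DDP. SPOCK1, a testican proteoglycan, was 11.6-fold lower in HN4/DDP and differed by -0.57 in HN30. TFPI2, a Kunitz-type inhibitor of serine proteases in the matrix, was 5.00-fold lower in HN4/DDP and 3.73-fold lower in HN30/DDP. SPOCK3, another testican, was dim on both parental arrays and at least 1.93-fold and 1.29-fold higher in HN4/DDP and HN30/DDP. PAPLN, or papilin, which shares domains with ADAMTS proteins, was 3.52-fold lower in HN4/DDP and 4.74-fold higher in HN30/DDP. SERPINB2, the inhibitor of plasminogen activators known as PAI-2, was at least 2.11-fold higher in HN4/DDP. The plasminogen system as a list had 4 of 7 genes above 1 in HN4/DDP and 2 of 7 in HN30/DDP, and no gene of the list was called lower. SERPINB2 was dim on both HN30 arrays, with a measured difference of -1.92. Over all genes 5.77% and 12.9% were called higher at 1. The list of regulators and activators had 5 of 13 genes lower past 1 in HN4/DDP and 1 higher. In HN30/DDP it had 3 lower and 2 higher. Over all genes 5.36% and 8.67% were called lower at 1.

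Among the 8 sheddases, ADAM8 (-0.58 in HN4 and 0.55 in HN30) and ADAM10 (-0.39 and 0.39) differed by less than 1. ADAM12 was 3.50-fold higher in HN4/DDP and 6.28-fold lower in HN30/DDP, while ADAM19 was 2.62-fold lower in HN4/DDP and 5.95-fold higher in HN30/DDP. ADAM28 was 4.73-fold higher in HN4/DDP. Of the substrates, THBS1, thrombospondin 1, was 9.48-fold lower in HN4/DDP and 3.94-fold lower in HN30/DDP, and THBS2 was at least 1.15-fold higher in HN4/DDP.

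Of 11 AP-1 and ETS factors, 3 were called higher in HN4/DDP, where FOS was 7.17-fold, FOSB 6.91-fold and JUN 4.23-fold above HN4, beside 2.24% of all genes called higher there. In HN30/DDP FOSB was 5.16-fold higher, while FOS and JUN differed by 0.67 and 0.12. Factors of the list were also lower by more than 1, named here after their values were seen: FOSL1 was 3.12-fold lower in HN30/DDP (difference -1.64, with 0.78 in HN4), ETS1 2.57-fold lower in HN30/DDP (difference -1.36, with -0.71 in HN4), and FOSL2 differed by -1.18 in HN4 and by 1.04 in HN30. Of the MMP genes of the chromosome 11 run, MMP1 alone was measured on all 4 arrays, with differences of 0.84 in HN4 and -2.48 in HN30; the part of AP-1 in them was not tested.

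**Figure D5:**
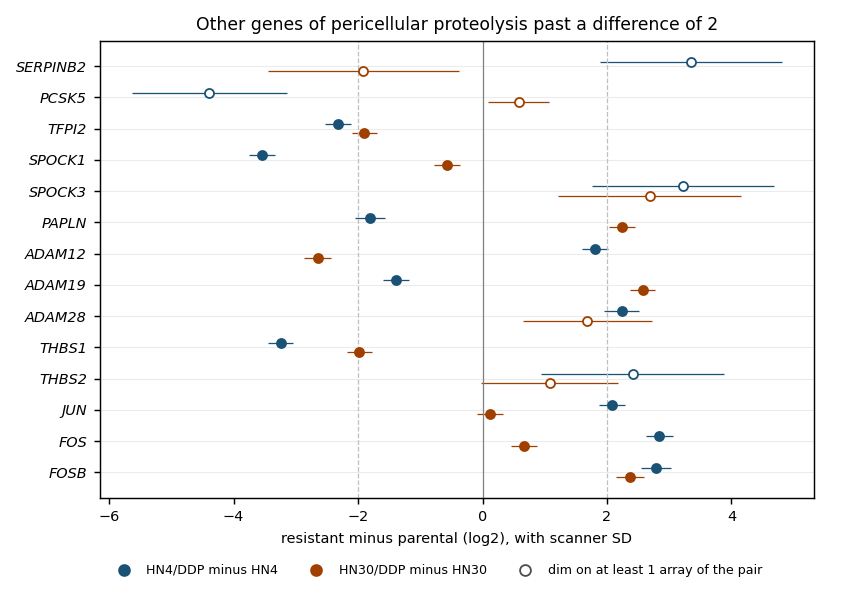
Difference of the resistant from the parental array (x axis, log2) with the scanner SD as bars, for the 14 genes of the list of other proteolysis genes called at a difference of 2 (dashed lines) in at least 1 line. Open points had at least 1 dim array in the pair; TFPI2 and THBS1 lie left of 0 and FOSB and SPOCK3 right of 0 in both lines, and PAPLN, ADAM12 and ADAM19 lie on opposite sides.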

How the data were processed

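The authors deposited the scanner output of 4 one-colour arrays, 1 for each parental and each resistant line, made with Agilent Feature Extraction 10.7.1.1 (hg19 probe coordinates), and a table of log2 values. The deposited processed intensity of each spot is background-subtracted by that software. In the deposited log2 table each array had a median of 4.65 and the sorted values were identical on all arrays, and the steps behind it are not given in the sources used here.

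Here, control and outlier spots were left out (the 75th percentile was taken over all 60901 non-control spots), log2 intensities were set relative to the 75th percentile of the array, repeated spots were averaged, and the probe with the highest mean stood for its gene. Of the members, 46 had an accession that RefSeq (GRCh38.p14) gives the same symbol, and all 49 symbols are in it. The number of arrays limits the precision. limma 3.58.1 (R 4.3.3, trended eBayes) was fitted to the genes that passed the background flag on any array, and the code was tested on simulated data. Python 3.11.15, numpy 2.4.6 and pandas 2.3.3 were used for the rest.

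Named are members well above background somewhere whose difference passed 2 in a line or 1 in the same direction in both, all TIMP and HTRA members, members with discordant probes, and up to 15 other proteolysis genes past 2; further names were chosen after their values were seen. The members and lists were chosen with earlier results of these data known. Alternatives were normexp background correction (offset 50), scaling to the median, quantile normalization, the deposited log2 values, a pseudocount of 16, dim signals set to the lowest signal well above background, the mean of a gene's probes, other background requirements and a threshold of 1, the last also combined with each of them except the background requirements, as an addition made after seeing the data.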

Additional observations from a re-analysis of the deposited data

Results flagged for a closer look

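MMP2 moved in opposite directions in the lines: its difference was -1.14 in HN4/DDP and 1.44 in HN30/DDP, each more than 4 times its scanner SD. With normexp background correction the differences were -0.55 and 0.49. Each line had 1 array per condition, so that this contrast between HN4 and HN30 was not tested.

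A probe of ADAMTS7 that the values of the gene do not use was well above background in HN30/DDP only, with a difference of 2.83 (scanner SD 1.30), while the probe used differed by -0.36.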

How the results depend on the processing

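The main counts of members were 1 higher and 2 lower in HN4/DDP, 4 higher and 3 lower in HN30/DDP, and 0 in each direction in both lines. With normexp background correction they were 0, 1, 1 and 0 in that order. Scaling to the median gave 1 higher in HN30/DDP and moved the median of all genes in HN30 from -0.07 to -0.49; the authors' deposited values gave 2. A pseudocount of 16 gave 1 lower in HN4/DDP and 1 higher and 0 lower in HN30/DDP. With dim signals raised to the lowest bright one there was 1 lower in HN4/DDP and there were 2 higher and 1 lower in HN30/DDP. The mean of the probes gave 1 lower in HN4/DDP and 2 higher in HN30/DDP, and requiring both arrays to be well above background gave 0, 1, 2 and 1. At a difference of 1 the counts were 4 higher in HN4/DDP, 4 lower in HN4/DDP, 10 higher in HN30/DDP and 3 higher in both lines. Of the 40 alternative counts whose main count was above 0, 19 stayed within 1.5 times it and 21 moved; the other 23 have a main count of 0 and say nothing about stability. With the threshold of 1 combined with the other settings, combinations chosen after seeing the data, the count higher in HN30/DDP ranged from 6 to 10. The member medians ranged from -0.23 to 0.02 in HN4 and from -0.60 to 0.03 in HN30. Of 462 recomputed differences of members, 123 moved beyond the scanner SD. None turned the sign of a call at 2, though calls were lost as counted above, and ADAMTS12, called at 1 in HN4, turned to -0.08 with dim signals raised. In limma 0 members passed under every setting, with 3 to 5 under an unadjusted p of 0.05.

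No paired analysis was possible because every group carries the same single replicate number in the labels, other than the pairing of arrays by cell line that the limma contrast already uses (1 residual degree of freedom). Leaving out an array leaves no residual degrees of freedom, and a slide block could not be run with 1 slide. Signal over background limits MMP3, MMP7, ADAMTS9, ADAMTS12, ADAMTS14, ADAMTS17 and ADAMTS20, whose folds are bounds.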
